A study of Mus musculus with 25 samples.

Results

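Proteasome genes were taken as all genes whose annotated symbol starts with Psma, Psmb, Psmc, Psmd or Psme followed by a number, each read by its brightest probe set among those that carry a single symbol. There were 44 of them among 18193 genes with such a probe set. Of these, 42 code for subunits, activators or assembly factors of the proteasome. The other two are not parts of the complex: Psmc3ip codes for a partner of meiotic recombination enzymes, and Psme3ip1 codes for a protein that binds the activator PA28 gamma. Both were kept because the rule on symbols names them. Of the 44 genes, 42 were bright enough to be tested, beside 12062 genes tested in all. The testis subunit Psma8 and the thymus subunit Psmb11 lay above the array median in 0 of 25 lungs, with log2 intensities of at most 5.84 and 5.31, and were not tested. The rule names 5 immunoproteasome genes, of which 4 were measured by a probe set of their own: Psmb8, Psmb9, Psmb10 and Psme1. Psme2 was read only by a probe set that is annotated to Psme2b as well.

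The series followed lungs after bleomycin, a chemotherapy drug used to bring on lung injury and scarring, in mice with and without FP, the receptor for prostaglandin F2 alpha. Lungs of 25 female mice were read with Affymetrix arrays, 1 array per mouse: 13 wild type (WT; 4 on Day 0, 4 on Day 7 and 5 on Day 14) and 12 FP knockout (FP-KO; 4 on each of these days). All groups share 1 treatment text, bleomycin at 1 mg/kg in 40 ul saline into the trachea on Day 0. Day 0 lungs are called baseline, and the labels do not say whether they were taken before the drug was given. The strain, the age of the mice and the FP-KO allele are not given in the sources used here, and no saline group was analysed here.

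The proteasome is the protease that degrades proteins marked with ubiquitin. Its barrel-shaped core, the 20S particle, is built from outer rings of alpha subunits (Psma genes) and inner rings of beta subunits (Psmb genes), and the beta subunits encoded by Psmb5, Psmb6 and Psmb7 carry the active sites. A cap called the 19S particle, with a ring of ATPases (Psmc genes) and non-ATPase subunits (Psmd genes), binds ubiquitin chains, unfolds the substrate and feeds it into the core. Interferon gamma is known to induce Psmb8, Psmb9 and Psmb10, whose products replace the constitutive active subunits in newly built cores (the immunoproteasome), and the PA28 cap of Psme1 and Psme2, and immune cells hold immunoproteasomes without it. Such cores are best known for making peptides that are shown on MHC class I molecules.

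Values are log2 intensities after quantile normalization, and a change is a difference of group means on that scale with its standard error after ±. A gene rose, fell or passed where the limma test with Benjamini-Hochberg adjustment over the 12062 genes gave an adjusted p under 0.05. In Ptgfr, which codes for FP, the 13 WT lungs lay between 6.99 and 8.50 and the 12 FP-KO lungs between 4.60 and 5.88. The Day 14 lungs fell into separate sets along the second principal component of all tested genes, which held 16.9% of the variance and includes the proteasome genes. WT No. 1 to 3 and FP-KO No. 1 and 2 lay between -30.1 and -27.7 (the first set below), and WT No. 4 and 5 and FP-KO No. 3 and 4 between -1.35 and 2.28 (the second set). The labels name no such sets, and each holds both genotypes. One lung, FP-KO Day 14 No. 2, also stood apart on the first component (42% of the variance), at -28.9 among the Day 0 lungs (-35.0 to -24.8) and away from the other 3 of its group (-5.37 to 1.44). Its 18S rRNA signal was 6339, where the rest of its group had 211.7 to 746.1, and its ratio of 3′ to 5′ Actb signal was 1.56, against 1.38 to 1.40. Day 14 results are given with and without this lung and within the sets where these change them.

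By Day 7, genes of the core, the cap and the assembly factors rose in WT lungs, most of them in the cap. Of 42 tested genes 18 rose and 0 fell in limma's test, where 17.1% of all genes rose and 18% fell. All 42 differences were positive, with a median of 0.27, against -0.01 over all genes tested. In 23 of the 42 the 4 lungs of Day 7 lay above all 4 of Day 0, against 17.2% of all genes. The changes were small: the largest among genes that passed was 0.59, or 1.51-fold. At an unadjusted p under 0.05 there were 24 genes. For unadjusted counts, here and below, the share over all genes was not computed, so they cannot be set against it. With arrays scaled to a common median in place of quantile normalization, 10 genes rose, and all 42 differences stayed positive. Without WT Day 0 No. 1, 12 rose. The shares of all genes that rose in these alternative fits are not given here. The ratio of 3′ to 5′ Actb signal moved with the day: it was 1.34 to 1.62 in the WT lungs of Day 0 and 1.23 to 1.32 in those of Day 7, without overlap, and its part in these changes was not tested.

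**Figure D1:**
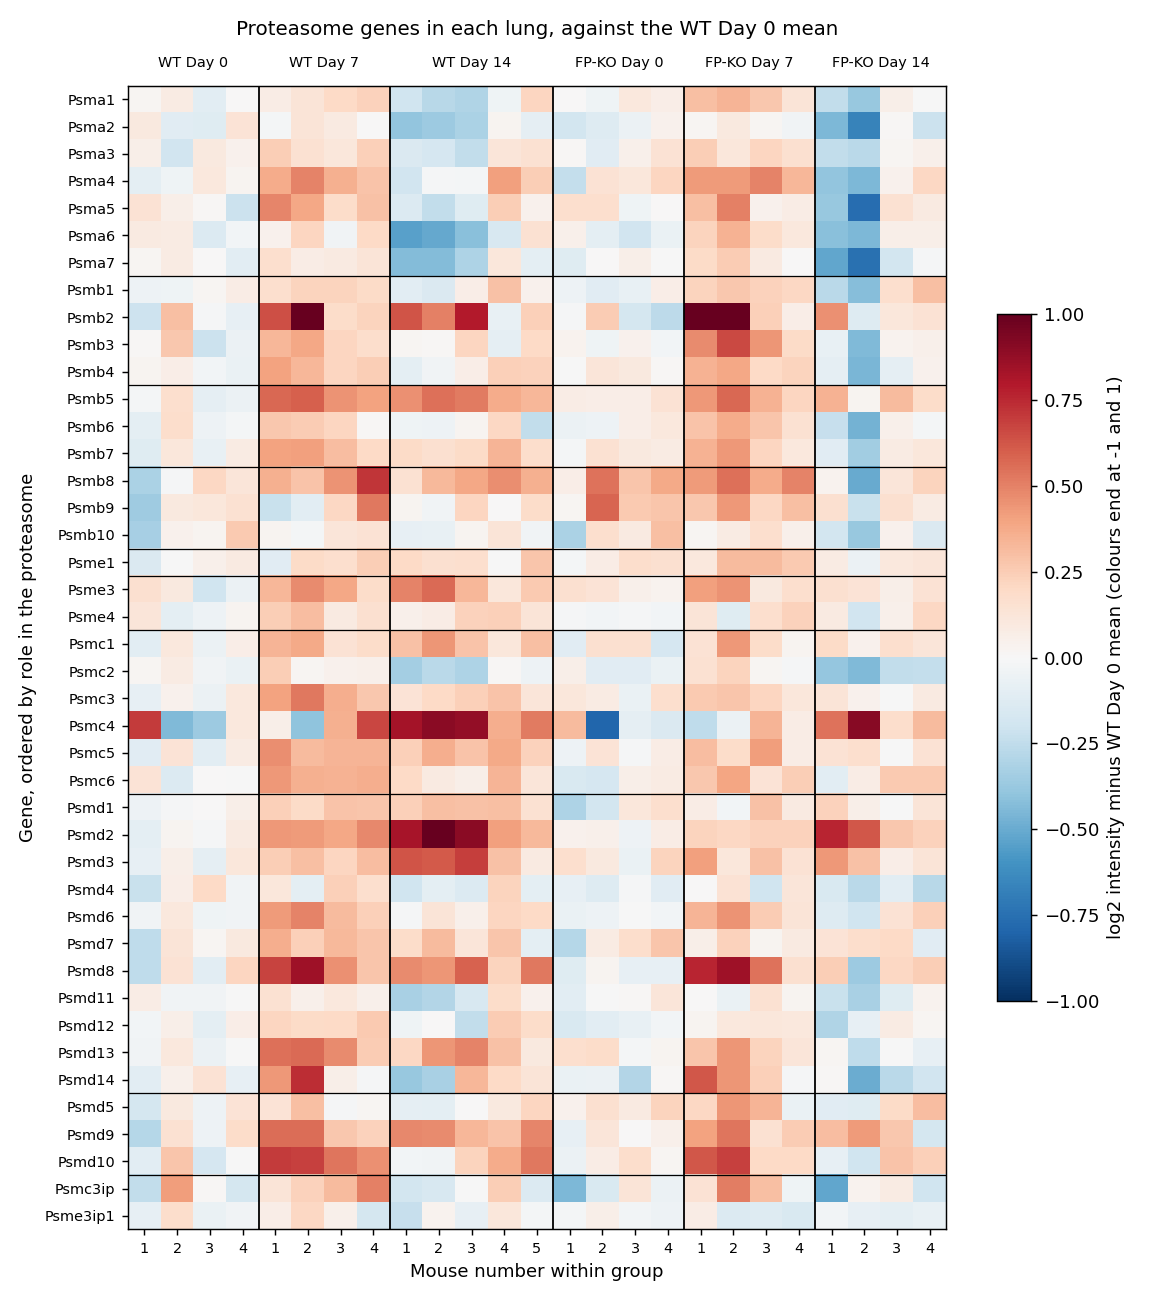
Log2 intensity of 42 proteasome genes (vertical axis, ordered by role) in each of 25 lungs (horizontal axis, mouse number within group) as the difference from the WT Day 0 mean, with colours ending at -1 and 1. Day 7 columns are mostly red in both genotypes, and on Day 14 the 7 alpha ring genes at the top are blue or near white in WT No. 1 to 3 and FP-KO No. 1 and 2.

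The alpha ring gates the core, and 1 of its 7 tested genes rose in WT lungs by Day 7. Psma4 was at most 12.20 on Day 0 and measured 12.47, 12.59, 12.45 and 12.38 on Day 7, without overlap, a change of 0.38 ± 0.14 (adjusted p = 0.0335). The other 6 alpha genes differed by 0.05 (Psma2) to 0.34 (Psma5) and did not pass. Among the structural beta subunits, which form the inner rings without an active site, Psmb4 rose by 0.30 ± 0.10. Psmb1, Psmb2 and Psmb3 differed by 0.20, 0.52 and 0.28 and did not pass.

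Of the constitutive active subunits, 2 of 3 rose. Psmb5, the chymotrypsin-like subunit, measured 11.26, 11.44, 11.19 and 11.22 in WT lungs on Day 0 and 11.85, 11.88, 11.73 and 11.68 on Day 7. Each Day 7 lung lay above each Day 0 lung, and the change was 0.51 ± 0.09, or 1.42-fold (adjusted p = 0.000117). Psmb7, the trypsin-like subunit, measured 12.66, 12.91, 12.72 and 12.87 on Day 0 and 13.19, 13.20, 13.10 and 12.99 on Day 7. It too was without overlap and rose by 0.33 ± 0.10 (adjusted p = 0.00986). Psmb6, the caspase-like subunit, measured 11.85, 12.13, 11.90 and 11.93 on Day 0 and 12.22, 12.21, 12.17 and 11.96 on Day 7. Its lungs overlapped and its difference of 0.19 ± 0.11 did not pass (adjusted p = 0.182).

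The 19S cap held most of the genes that rose, with 4 of 6 ATPases and 6 of 11 non-ATPase subunits. Among the ATPases, which unfold the substrate, Psmc3, Psmc5, Psmc6 and Psmc1 rose by 0.39, 0.37, 0.38 and 0.26, and Psmc2 and Psmc4 differed by 0.09 and 0.17. Psmd8, a lid subunit, measured 11.39, 11.78, 11.54 and 11.86 on Day 0 and 12.32, 12.49, 12.10 and 11.92 on Day 7, without overlap, and rose by 0.56 ± 0.15 (adjusted p = 0.00657). Psmd13, another lid subunit, measured 10.08, 10.21, 10.05 and 10.10 on Day 0 and 10.66, 10.68, 10.58 and 10.37 on Day 7. Its groups did not overlap either, and the change was 0.46 ± 0.10 (adjusted p = 0.000777). Psmd2, a scaffold of the base, was 11.19 to 11.38 on Day 0 and 11.68 to 11.77 on Day 7, a rise of 0.43 ± 0.13. Psmd1, Psmd6 and Psmd7 rose by 0.25, 0.37 and 0.30.

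Assembly factors and other caps followed. Psmd10 codes for gankyrin, which helps to assemble the base and is released from the finished cap. It measured 9.54, 9.93, 9.48 and 9.65 on Day 0 and 10.35, 10.33, 10.18 and 10.11 on Day 7. No lung overlapped between the days, and the rise of 0.59 ± 0.14 was the largest of the genes that passed (adjusted p = 0.00242). The assembly factor Psmd9 rose by 0.40 and Psmd5 differed by 0.11. Psme3, which codes for the nuclear cap PA28 gamma, rose by 0.34, and Psme4, which codes for the cap PA200, differed by 0.20. Of the genes that are no part of the complex, Psmc3ip differed by 0.30 and Psme3ip1 by 0.04, and neither passed. With the mean of all probe sets of a gene in place of the brightest, 8 of the 18 calls were lost: Psmc1, Psmd9, Psmd13, Psmd2 and Psme3 differed by 0.0046, 0.0227, 0.21, 0.22 and 0.18, Psmd7 by -0.0288, and Psmb4 and Psmb8 by 0.25 and 0.50. This mean takes in dim probe sets: the others of Psmc1, Psmd2 and Psmd9 lay above the array median in 0 arrays. The other probe set of Psmb4 did so in 25.

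Among the proteasome genes, those of the immunoproteasome are the ones known to be induced by interferon gamma, and 1 of the 4 measured rose by Day 7 in WT lungs. Other genes of the interferon gamma pathway are given further below. Psmb8 measured 10.74, 11.05, 11.26 and 11.17 on Day 0 and 11.41, 11.34, 11.50 and 11.77 on Day 7. The groups did not overlap, and the change was 0.45 ± 0.14, or 1.37-fold (adjusted p = 0.015). Psmb9 measured 10.05, 10.51, 10.53 and 10.56 on Day 0 and 10.19, 10.30, 10.62 and 10.94 on Day 7. It was below all but 1 Day 0 lung in No. 1 and 2 and above them all in No. 3 and 4, and its difference of 0.10 ± 0.15 did not pass. Psmb10 measured 10.75, 11.13, 11.11 and 11.35 on Day 0 and 11.12, 11.06, 11.20 and 11.23 on Day 7, with a difference of 0.07 ± 0.12. Psme1 measured 12.18, 12.32, 12.38 and 12.42 on Day 0 and 12.21, 12.51, 12.49 and 12.57 on Day 7, with a difference of 0.12 ± 0.09. The lungs of both days overlapped in these 3 genes. The probe set annotated to both Psme2 and Psme2b differed by 0.20 ± 0.12 (adjusted p = 0.222). WT Day 0 No. 1 was the lowest of its group in all 4 genes, and it had the highest 18S rRNA signal (2869.8, against 209.3 to 474.2) and Actb ratio (1.62, against 1.34 to 1.43) of its group. Without it Psmb8 differed by 0.34 on Day 7 and no longer passed (adjusted p = 0.0723). In FP-KO lungs the Day 0 lung and the Day 14 lung with the most 18S rRNA signal (No. 1 at 6648.1 and No. 2 at 6339) were likewise the lowest of their groups in all 4 genes, and WT Day 14 No. 1 (2151.7) was so only in Psmb8 and Psmb10. FP-KO Day 7 No. 2 (1112.3, against 240.5 to 315.5) was instead the highest of its group in Psmb8 and Psmb9. The part of RNA quality in these levels was not tested.

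Psmb8 and Psmb9 are neighbours in the MHC on chromosome 17, where the gene order is Psmb9, Tap1, Psmb8, Tap2. The RefSeq promoter windows (GRCm38.p6, 250 bases before to 50 after the annotated start) of 3 immunoproteasome genes and of Psmb5 are shown because these genes differed in how far they moved. They lie at chr17:34197945-34198244 on the plus strand (Psmb8), chr17:34187281-34187580 on the minus strand (Psmb9), chr14:55578244-55578543 on the plus strand (Psme1) and chr14:54617946-54618245 on the minus strand (Psmb5). Each is written 5′ to 3′ on its gene's strand, and capitals mark a match to 1 of 3 searched motifs.
Psmb8: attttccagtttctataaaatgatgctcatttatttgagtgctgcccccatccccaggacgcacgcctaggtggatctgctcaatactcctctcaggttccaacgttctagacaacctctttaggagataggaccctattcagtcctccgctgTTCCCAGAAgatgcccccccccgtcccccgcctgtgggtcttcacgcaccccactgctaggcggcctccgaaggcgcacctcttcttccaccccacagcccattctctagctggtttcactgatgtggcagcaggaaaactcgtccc
Psmb9: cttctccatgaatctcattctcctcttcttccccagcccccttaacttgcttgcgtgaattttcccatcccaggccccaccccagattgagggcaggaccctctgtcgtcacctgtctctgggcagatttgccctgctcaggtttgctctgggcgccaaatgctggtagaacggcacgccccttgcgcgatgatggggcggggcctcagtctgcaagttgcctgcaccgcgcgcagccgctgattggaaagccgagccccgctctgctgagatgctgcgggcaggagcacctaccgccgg
Psme1: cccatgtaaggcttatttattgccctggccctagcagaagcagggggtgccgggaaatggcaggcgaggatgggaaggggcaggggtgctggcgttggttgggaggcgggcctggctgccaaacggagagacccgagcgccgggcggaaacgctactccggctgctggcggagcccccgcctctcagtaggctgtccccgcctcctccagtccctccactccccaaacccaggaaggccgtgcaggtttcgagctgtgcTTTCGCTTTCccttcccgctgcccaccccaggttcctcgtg
Psmb5: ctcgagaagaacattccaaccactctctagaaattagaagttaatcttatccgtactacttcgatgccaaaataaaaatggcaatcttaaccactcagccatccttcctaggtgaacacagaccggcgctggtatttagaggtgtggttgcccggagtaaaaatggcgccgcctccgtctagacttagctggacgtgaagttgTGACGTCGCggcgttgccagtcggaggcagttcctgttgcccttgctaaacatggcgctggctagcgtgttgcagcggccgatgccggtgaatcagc
The motifs were searched on both strands: TTCNNNGAA (GAS type, bound by STAT factors after interferon gamma), GAAA, NN and GAAA in a row (ISRE type, bound by interferon regulatory factors) and TGACNNNGC (ARE type, bound by NRF factors that raise proteasome genes). A window was given for 37 of the 44 genes, with 40 windows in all. A gene was counted if any of its windows matched, whereas the share over all genes is per window. The GAS-type letters occurred in 2 of the 37, Psmb8 and Psmd2, against 8.3% of 32851 windows of all genes. The ISRE-type letters occurred in 4 (Psmb3, Psmd4, Psmd9 and Psme1), against 3.44%, and the ARE-type letters in 6 (Psmb5, Psmb6, Psmc6, Psmd12, Psmd9 and Psme4), against 12.4%. Of the 2 genes with the GAS-type letters 2 rose by Day 7 in WT lungs. So did 1 of 4 with the ISRE-type letters and 3 of 6 with the ARE-type letters, where 18 of all 42 tested genes rose. These counts are small, and a link between the letters and the rise was not tested. The Psmb9 window held none of these letters, and 275 of its bases are also in the window of Tap1, which is read on the opposite strand. A match in such a window is a description of the sequence and not a site.

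In WT lungs on Day 14, 13 of the 42 genes were higher than on Day 0 and 0 fell, where 19.1% of all genes rose. The median difference was 0.10, against -0.01 over all genes, with 28 positive and 14 negative. The 5 lungs of Day 14 lay above all of Day 0 in 9 genes, against 14.8% of all genes. Of the 18 genes that rose by Day 7, 11 were among these 13; both days were set against the same Day 0 lungs. Without WT Day 0 No. 1, 7 genes rose, and the share of all genes in that fit is not given here. With the mean of all probe sets, the calls of Psmb8, Psmc1, Psmd9 and Psmd13 were lost (0.15, -0.0101, 0.24 and 0.02).

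The cap and Psmb5 carried the Day 14 rises. Psmb5 measured 11.73, 11.83, 11.80, 11.65 and 11.61, above all of Day 0, a rise of 0.45 ± 0.08 (adjusted p = 0.000238). Psmd2 measured 12.12, 12.29, 12.19, 11.70 and 11.61 and rose by 0.69 ± 0.12, or 1.61-fold (adjusted p = 0.000107). Its Day 14 lungs were all above Day 0, with No. 1 to 3 higher than No. 4 and 5. Psmd3, a lid subunit, measured 9.70, 9.84, 9.70 and 9.89 on Day 0 and 10.41, 10.39, 10.47, 10.08 and 9.87 on Day 14. It rose by 0.46 ± 0.11, with an overlap in No. 5 alone. Psmd8 measured 12.11, 12.08, 12.23, 11.86 and 12.17 and rose by 0.45 ± 0.15, without overlap. Psmc4, an ATPase, measured 11.60, 10.46, 10.53 and 11.01 on Day 0 and 11.73, 11.80, 11.78, 11.26 and 11.42 on Day 14. Its rise of 0.70 ± 0.24 (adjusted p = 0.0251) came with overlap and a wide Day 0 spread, and its other probe set differed by 0.29.

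In the alpha ring none of the 7 genes passed on Day 14 by limma (1 at an unadjusted p under 0.05), 6 of 7 were below Day 0 and the median was -0.12. This median turned to 0.09 with only the second Day 14 set and also with the set as a term, where Psma4 passed (0.33 and 0.37). Psmb7 measured 12.98, 12.95, 12.98, 13.13 and 12.96, all above Day 0, with a difference of 0.21 ± 0.09 that did not pass (adjusted p = 0.069). It passed without FP-KO Day 14 No. 2 (adjusted p = 0.0387) and with the set as a term (0.32, adjusted p = 0.0122), but within neither set alone. Psmb6 measured 11.91, 11.91, 11.98, 12.16 and 11.71, within the spread of Day 0. Of the immunoproteasome, Psmb8 measured 11.21, 11.38, 11.44, 11.52 and 11.41 and rose by 0.34 ± 0.13 (adjusted p = 0.0485), with an overlap in 1 lung. Its call was lost in 24 of 39 alternative settings, among which its change ran from 0.15 to 0.49. Psmb9 measured 10.44, 10.37, 10.63, 10.41 and 10.59 on Day 14, Psmb10 11.01, 11.01, 11.11, 11.21 and 11.05, and Psme1 12.52, 12.49, 12.49, 12.32 and 12.60, with differences of 0.08, -0.01 and 0.16 that did not pass. From Day 7 to Day 14, 1 gene passed in WT lungs: the ATPase gene Psmc2 fell by 0.28 (adjusted p = 0.0486), where 2.37% of all genes fell. This call was lost in 24 of 39 alternative settings. With only the first Day 14 set, 15 genes fell and 2 rose, where 12.1% and 12.5% of all genes did. With only the second, 0 passed, where 0.0166% of all genes fell and 0.108% rose. Of 42 genes 34 were lower on Day 14 than on Day 7, with a median of -0.16, and 3 were lower without overlap, against 5.34% of all genes.

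**Figure D2:**
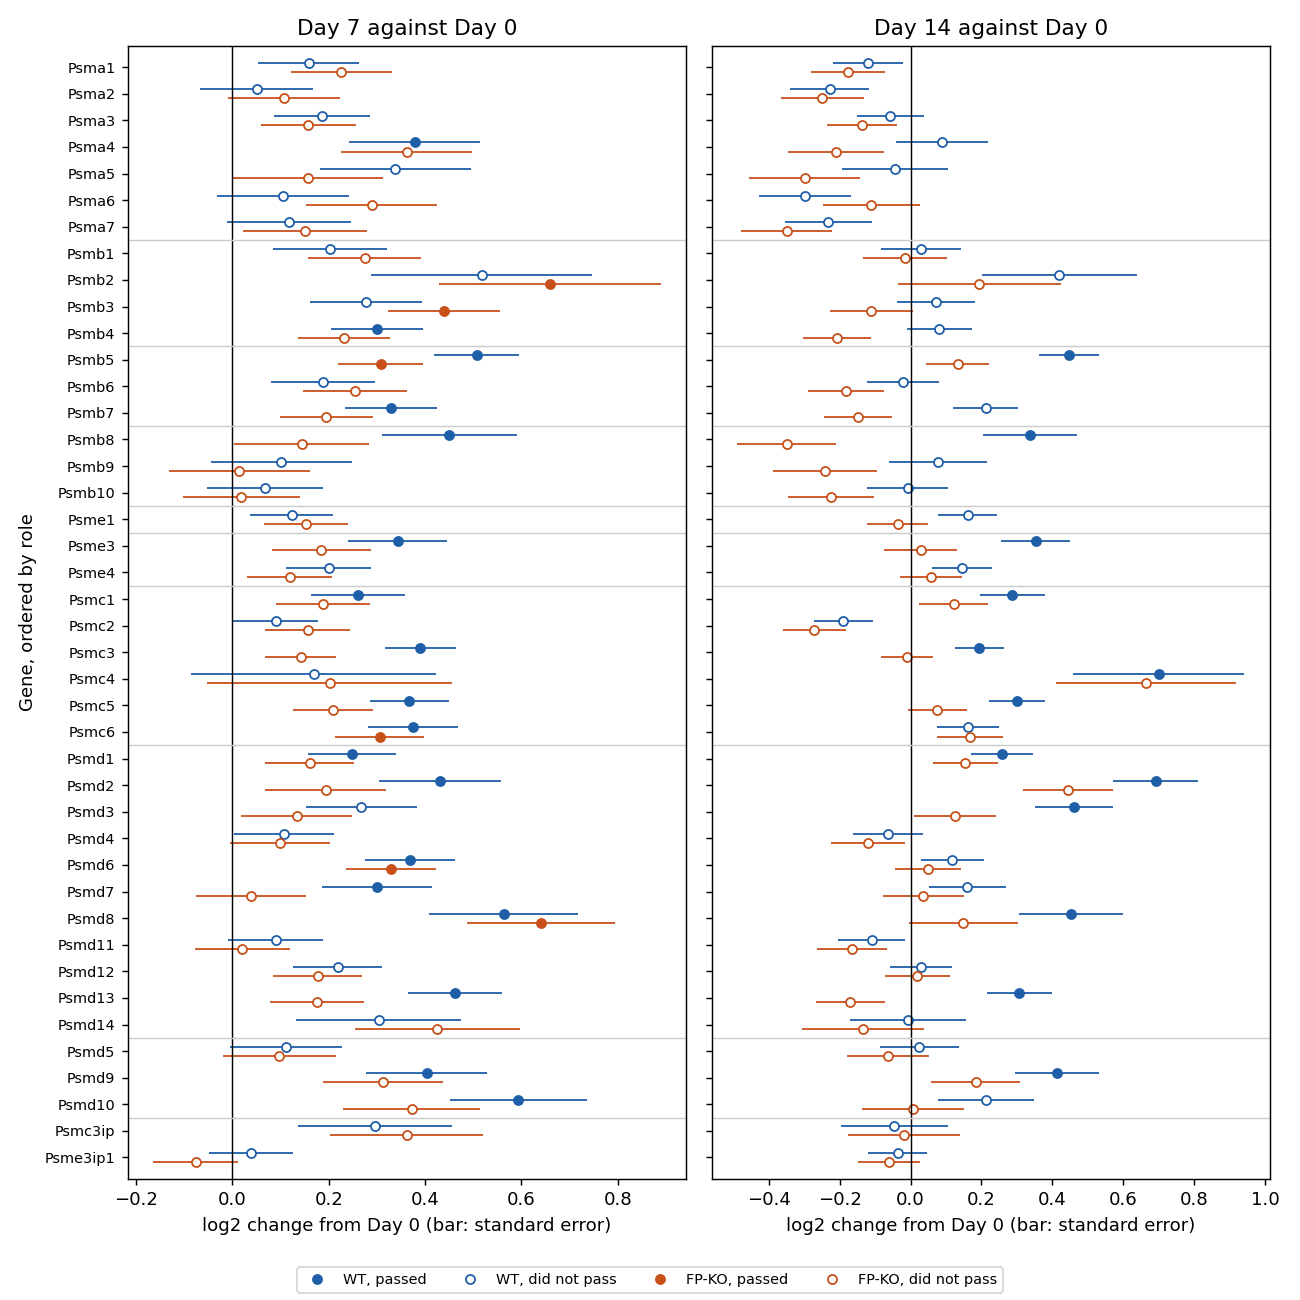
Change in log2 intensity from Day 0 (horizontal axis, with standard error) of each tested proteasome gene (vertical axis, ordered by role) on Day 7 (left) and Day 14 (right). Filled points passed and open points did not, with WT in blue and FP-KO in orange; on Day 7 all but 1 point lie right of 0, and on Day 14 6 of 7 WT and 7 of 7 FP-KO alpha ring points lie left of it.

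In FP-KO lungs, 6 of the 42 genes rose by Day 7 and 0 fell, where 12.6% of all genes rose. The median difference was 0.19, against 0.00 over all genes, 41 of 42 were positive and 17 had an unadjusted p under 0.05. In 15 genes the Day 7 lungs lay above all of Day 0, against 13.8% of all genes. Psmd8 measured 11.52, 11.67, 11.56 and 11.56 on Day 0 and 12.40, 12.49, 12.18 and 11.80 on Day 7 and rose by 0.64 ± 0.15 (adjusted p = 0.0048). Psmb5 measured 11.35, 11.34, 11.34 and 11.42 on Day 0 and 11.71, 11.85, 11.62 and 11.50 on Day 7 and rose by 0.31 ± 0.09 (adjusted p = 0.0149). Neither gene overlapped between these days. Psmb2, a structural core subunit, measured 10.43, 10.69, 10.26 and 10.18 on Day 0 and 11.47, 11.55, 10.68 and 10.50 on Day 7. It rose by 0.66 ± 0.23 (adjusted p = 0.0405) with overlap, and its No. 1 and 2 were well above its No. 3 and 4. The core subunit Psmb3, the lid subunit Psmd6 and the ATPase Psmc6 rose by 0.44, 0.33 and 0.31. Without FP-KO Day 7 No. 2, the count fell to 2, and the share of all genes in that fit is not given here.

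No immunoproteasome gene passed in FP-KO lungs by Day 7, by limma and also at an unadjusted p under 0.05 (0 of 4). Psmb8 measured 11.12, 11.60, 11.33 and 11.43 on Day 0 and 11.48, 11.60, 11.42 and 11.55 on Day 7, a difference of 0.14 ± 0.14. Psmb9 measured 10.43, 10.99, 10.68 and 10.69 on Day 0 and 10.68, 10.84, 10.62 and 10.71 on Day 7, a difference of 0.01 ± 0.15. Both overlapped. Psmb10 measured 10.77, 11.26, 11.17 and 11.39 on Day 0 and 11.10, 11.17, 11.25 and 11.14 on Day 7, and Psme1 12.30, 12.40, 12.49 and 12.48 and then 12.43, 12.64, 12.64 and 12.58. They differed by 0.02 and 0.15. Psmb6 was 11.89 to 12.05 on Day 0 and 12.10 to 12.32 on Day 7 without overlap, and Psmb7 12.77 to 12.94 and then 12.90 to 13.22, with differences of 0.26 and 0.20 that did not pass.

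On Day 14, 0 of 42 genes passed against Day 0 in FP-KO lungs, with 7 at an unadjusted p under 0.05, where 1.85% of all genes rose and 1.41% fell. Of the 42, 1 was higher (Psmd2) and 1 lower (Psmc2) without overlap, against 9.87% of all genes. With only the first Day 14 set, 13 genes fell and 1 rose, where 7.26% and 7.2% of all genes did. With only the second, 0 passed, where 0.738% of all genes fell and 1.48% rose. The 2 largest differences upward were in Psmc4 (0.66) and Psmd2 (0.44), and the largest downward were in Psma7 and Psmb8 (-0.35 each). Psmb8 measured 11.09, 10.55, 11.17 and 11.28, with No. 2 the lowest of all 25 lungs. From Day 7 to Day 14, 17 genes fell and 0 rose, where 12% of all genes fell. All 4 cell cycle genes fell over the same days (median -1.37), as did 2 of 4 leukocyte, 2 of 8 macrophage, 2 of 4 T cell, 2 of 5 NK and cytotoxic and 2 of 4 neutrophil genes. Of 4 endothelial genes 3 rose. Of all genes 4% rose in the fit without FP-KO Day 14 No. 2, and the share with this lung kept is not given here. The part of these cell types in the proteasome result was not tested. The median of the 42 proteasome genes was -0.27, against -0.0034 over all genes. In 12 of them the Day 14 lungs lay below all of Day 7, against 9.92% of all genes. All 7 tested alpha ring genes fell, by 0.29 (Psma3) to 0.57 (Psma4); with the mean of all probe sets Psma1, Psma3 and Psma5 no longer passed (-0.0541, -0.0230 and -0.24). Psma4 measured 12.52, 12.52, 12.59 and 12.43 on Day 7 and 11.70, 11.64, 12.14 and 12.30 on Day 14, without overlap (adjusted p = 0.00609). Psmd14, the deubiquitinase of the lid, Psmb3 and Psma7 fell by 0.56, 0.55 and 0.50. Of the active subunits, Psmb6 (11.72, 11.48, 12.01 and 11.94 on Day 14), Psmb7 (12.68, 12.44, 12.87 and 12.90) and Psmb8 fell by 0.44, 0.34 and 0.49, while Psmb5 (11.63, 11.31, 11.59 and 11.46) and Psmb9 (10.57, 10.19, 10.57 and 10.50) did not pass. Psmb10 (10.90, 10.71, 11.13 and 10.94) and Psme1 (12.40, 12.27, 12.43 and 12.44) did not pass either, and the probe set annotated to both Psme2 and Psme2b fell by 0.40 (adjusted p = 0.0246).

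FP-KO Day 14 No. 2 bore on these counts. It was the lowest of its group in 28 of 42 proteasome genes, against 32.3% of all genes. It was the lowest of all 25 lungs in 21, a count for which the share over all genes was not computed. Without it, 5 genes fell from Day 7 to Day 14 in FP-KO lungs, where 4.85% of all genes fell: Psma4, Psmb3, Psmb4, Psmb6 and Psmc2. Their falls were then 0.47, 0.44, 0.33, 0.33 and 0.39. Psmb8 was lower by 0.33 and no longer passed (adjusted p = 0.0915). With only the second set on Day 14, 0 genes passed, where 1.59% of all genes fell and 0.754% rose. With only the first set, 22 fell and 1 rose (Psmd2), where 18.5% and 17.2% of all genes did. When only the 2 groups compared entered the fit, 0 passed, and the share of all genes in that fit is not given here.

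The Day 14 sets separated the alpha ring. In all 7 of its tested genes each lung of the first set lay below each lung of the second, in both genotypes together. Psma7, for example, was 11.20 to 11.64 in the first set and 11.76 to 12.06 in the second. The median difference of the first from the second set over the ring was -0.34 in WT and -0.50 in FP-KO lungs. Over all 42 genes the first set was lower without overlap in 13 (31%), against 9.23% of all genes, and higher without overlap in 3 (7.14%), against 9.11%. Those 3 were Psmd2, Psmd3 and Psmc4: Psmd2 was 11.91 to 12.29 in the first set and 11.52 to 11.70 in the second. Against Day 0 with the first set alone, 12 genes rose and 6 fell in WT lungs (Psma1, Psma2, Psma6, Psma7, Psmc2 and Psmd11). Of all genes 21.9% rose and 22.6% fell in that fit. With the second set alone, 5 rose (Psma4, Psmb5, Psmd2, Psmd10 and Psmd12) and 0 fell, where 10.9% and 9.73% of all genes did. The 18S rRNA signal separated the same lungs, with 296.8 to 6339 in the first set and 190.8 to 230.8 in the second. Its part in the difference was not tested, and the sets were defined from these same arrays, so their difference is given with no test.

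**Figure D3:**
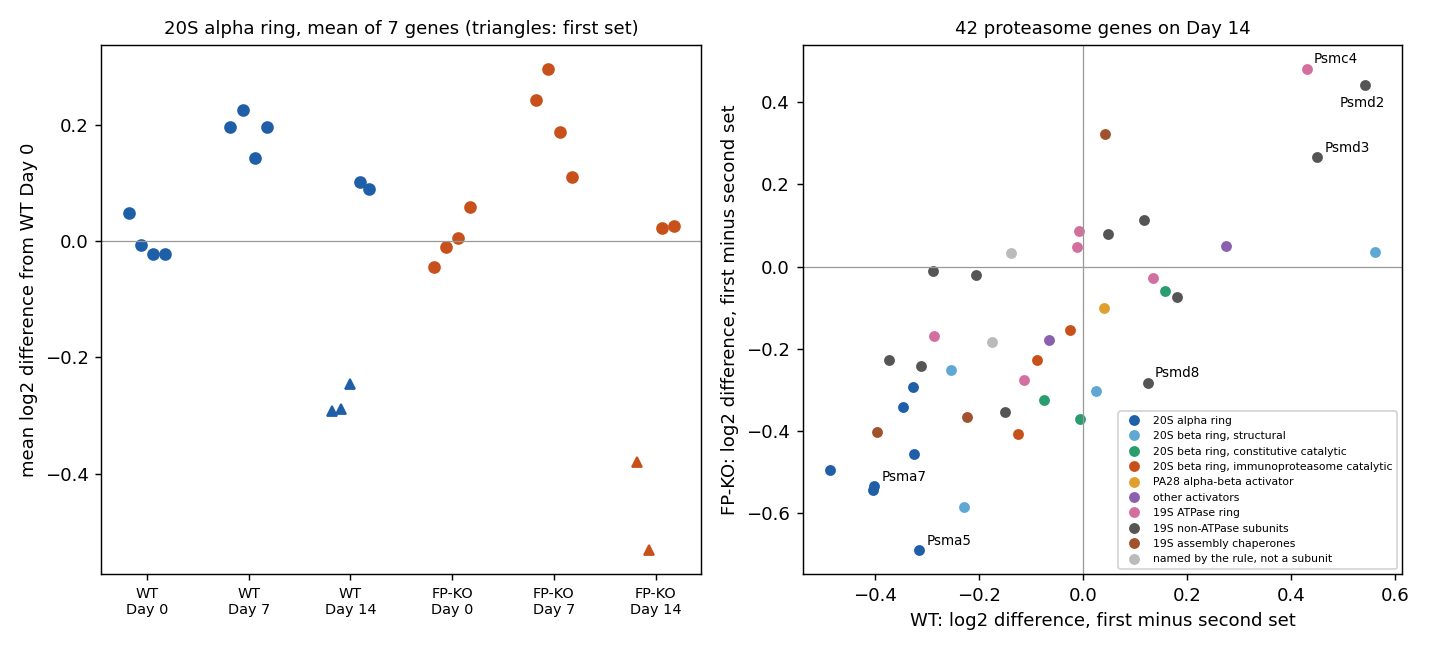
Left: mean difference from WT Day 0 in log2 intensity over 7 alpha ring genes (vertical axis) in each lung by group, with triangles for the first Day 14 set, which lies between -0.53 and -0.25 while the other Day 14 lungs lie between 0.02 and 0.10. Right: difference in log2 intensity between first and second Day 14 set of 42 genes in WT (horizontal axis) and FP-KO lungs (vertical axis), coloured by role; all alpha ring genes lie at lower left and Psmd2, Psmd3 and Psmc4 at upper right.

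Between genotypes, 1 proteasome gene passed, on Day 14. On Day 0 and on Day 7, 0 of 42 passed (1 on each day at an unadjusted p under 0.05: Psmb8 higher in FP-KO by 0.32 on Day 0 and Psmc3 lower by 0.17 on Day 7), where 0.0166% of all genes passed on each day. On Day 7, 3 genes were lower in FP-KO without overlap, against 2.73% of all genes, and on Day 0 there was none, against 2.11%. On Day 14 Psmd13 fell in FP-KO beside WT lungs, where 5.64% of all genes were lower. It measured 10.31, 10.55, 10.60, 10.41 and 10.21 in WT and 10.13, 9.86, 10.11 and 10.02 in FP-KO lungs, without overlap, a difference of -0.39 ± 0.09 (adjusted p = 0.0103). Without FP-KO Day 14 No. 2 no proteasome gene passed, where 1.66% of all genes were lower and 1.59% higher. With the mean of all probe sets of a gene Psmd13 differed by 0.04. On that day 40 of 42 genes were lower in FP-KO, with a median of -0.15, against -0.0022 over all genes, and 3 were lower without overlap, against 5.71% of all genes. Within the sets the median was -0.18 in the first and -0.11 in the second, and without FP-KO Day 14 No. 2 it was -0.10. Between the same groups 5 of 8 macrophage genes (median -0.72) and 4 of 4 cell cycle genes (median -1.13) were lower in FP-KO, and their part was not tested. Psmb7 (-0.28, adjusted p = 0.0509), Psmb8 (-0.37, adjusted p = 0.0764) and Psmb5 (-0.23, adjusted p = 0.0833) did not pass. With the Day 14 set as a term, 6 genes were lower in FP-KO (Psma4, Psmb4, Psmb7, Psmb8, Psmd2 and Psmd13), against 7.72% of all genes. With the first set alone 3 were lower (Psmb1, Psmb7 and Psmd13), against 5.16%, and with the second alone 0, against 0.00829%.

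Whether the change from Day 0 differed between genotypes was tested as an interaction. At Day 7, 0 proteasome genes passed, with 2 at an unadjusted p under 0.05 (Psmc3 and Psmd13), where 0% of all genes passed. At Day 14, 0 passed, with 7 at an unadjusted p under 0.05, where 3.12% of all genes passed. The largest was in Psmb8, whose change from Day 0 was 0.34 in WT and -0.35 in FP-KO lungs, an interaction of -0.69 ± 0.19 (adjusted p = 0.0532). Its mean on Day 0 was 11.05 in WT and 11.37 in FP-KO lungs, and this Day 0 difference enters the interaction. Without WT Day 0 No. 1 its change in WT lungs was 0.23. Psmd13 followed with an interaction of -0.48 ± 0.13 (adjusted p = 0.0523). With the Day 14 set as a term both passed, and without FP-KO Day 14 No. 2 neither did. The counts of 18 and 6 genes that rose by Day 7 in WT and FP-KO lungs therefore do not show a difference between genotypes.

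Immunoproteasome genes were set against the remaining proteasome genes by the mean over 4 genes minus the mean over the 38 others in each lung, as the difference from WT Day 0. The 38 others had means of -0.05 to 0.07 in WT lungs on Day 0, 0.23 to 0.34 on Day 7 and 0.07 to 0.21 on Day 14. The 4 immunoproteasome genes ranged from -0.29 to 0.16, from 0.01 to 0.41 and from 0.07 to 0.20 on the same days. The rest were thus clear of Day 0 on Day 7, whereas the immunoproteasome overlapped. The immunoproteasome mean minus the rest was -0.25, -0.04, 0.15 and 0.14 on Day 0, -0.31, -0.25, -0.00 and 0.18 on Day 7 and between -0.06 and 0.05 on Day 14 in WT lungs. The same difference in FP-KO lungs was -0.03, 0.35, 0.20 and 0.24 on Day 0, between -0.07 and 0.17 on Day 7 and between -0.13 and 0.06 on Day 14. From Day 0 to Day 7 it moved by -0.09 in WT and -0.15 in FP-KO lungs, and to Day 14 by 0.01 and -0.20. These groups overlapped on every pair of days in both genotypes, and on Day 0 FP-KO lay 0.19 above WT lungs, again with overlap. In FP-KO lungs the overlap of Day 0 with the later days came from Day 0 No. 1 alone (-0.03), the lung with the most 18S rRNA signal of its group. The other FP-KO lungs of Day 0 (0.20 to 0.35) lay above all of Day 7 and Day 14. Without No. 1 the difference moved by -0.22 to Day 7 and by -0.27 to Day 14. With all lungs kept, a shift of the immunoproteasome apart from the rest was not seen beyond the spread between lungs.

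**Figure D4:**
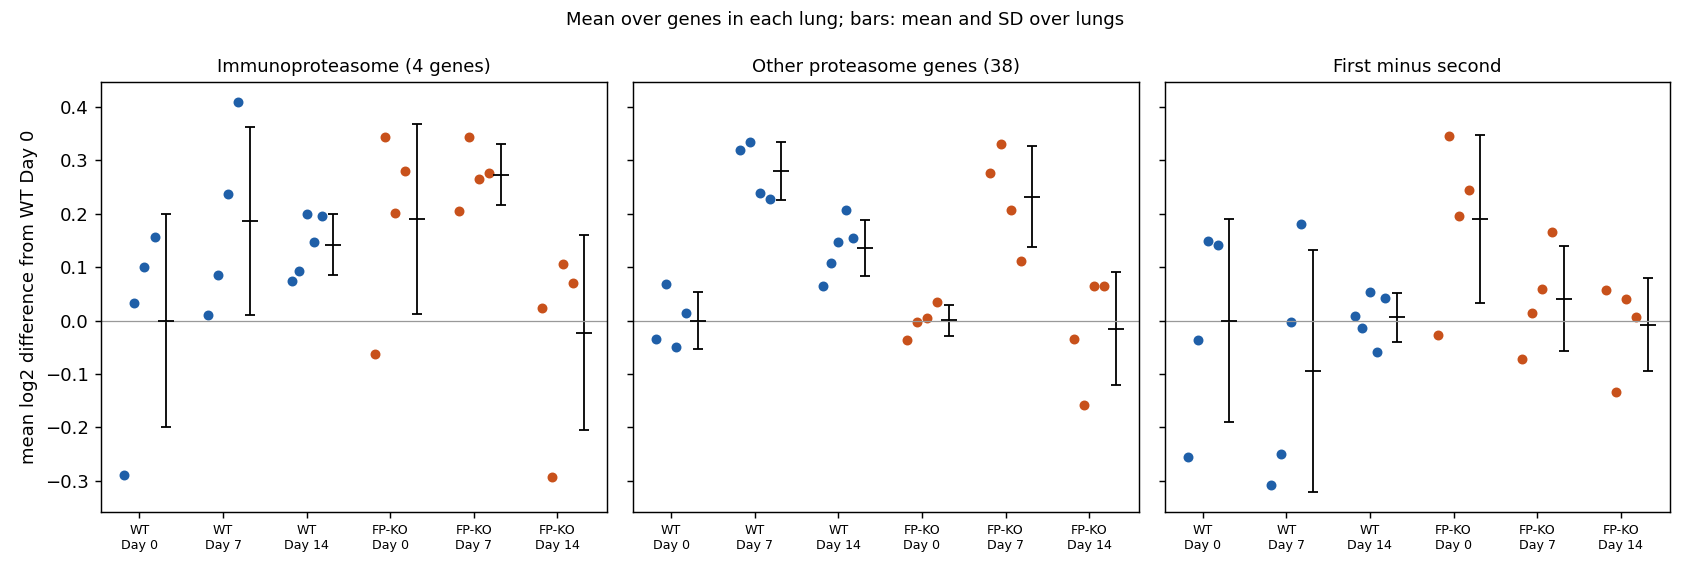
Mean over the 4 immunoproteasome genes (left), over the 38 other proteasome genes (middle) and their difference (right) in each lung, as log2 difference from WT Day 0 (vertical axis), by group; bars are mean and SD. The middle panel separates Day 7 from Day 0 in both genotypes, and in the other panels these days overlap.

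Other genes of the pathway were followed through lists that were written with earlier results of these data known. Of 14 tested assembly and associated genes, 3 rose and 2 fell in WT lungs by Day 7, where 17.1% and 18% of all genes did. The deubiquitinase Usp14 rose by 0.61, the deubiquitinase Uchl5 by 0.49 and the shuttle factor Rad23b by 0.48, while the shuttle factors Ubqln1 and Ubqln2 fell by 0.22 and 0.36. On Day 14, 2 of 14 rose, against 19.1% of all genes, and 3 fell, with a median of -0.02 over the list. Of all genes 20.1% fell in the fit without FP-KO Day 14 No. 2, and the share with this lung kept is not given here. Of 6 tested regulators of proteasome genes, Ngly1, which activates the factor NRF1, fell by 0.23 by Day 7 and 0.43 by Day 14, and the unfoldase Vcp rose by 0.39 by Day 14. Of 7 genes listed for ubiquitin and its activation or transfer, only Uba6 (an E1 enzyme) and Ube2l6 (an E2 enzyme) could be tested, and neither passed on either day.

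Genes of MHC class I presentation, which use the peptides of the proteasome, rose in 4 of 12 on Day 7 and in 8 of 12 on Day 14 in WT lungs, and 0 fell, where 17.1% and 19.1% of all genes rose. The oxidoreductase Pdia3 rose by 0.51 and 0.78, Tap1, a chain of the peptide transporter, by 0.57 and 0.51, and the class I heavy chain H2-K1 by 0.24 and 0.48. In FP-KO lungs 2 of 12 rose on Day 7 and 1 of 12 on Day 14, where 12.6% and 1.85% of all genes rose. Of 11 tested genes of the interferon gamma pathway, 4 rose and 0 fell in WT lungs by Day 7, where 17.1% of all genes rose. By Day 14, 5 rose and 1 fell, where 19.1% rose and, in the fit without FP-KO Day 14 No. 2, 20.1% fell. The chemokine genes Cxcl9 and Cxcl10 rose by 3.60 and 3.14 and the receptor chain Ifngr2 by 0.71 by Day 7, and on Day 14 by 2.27, 2.01 and 1.08. Ifng itself was below the filter, and the regulator Irf1 differed by -0.12 and 0.11 and did not pass. In FP-KO lungs by Day 7, Cxcl9 and Cxcl10 rose by 3.07 and 2.89 and Irf1 fell by 0.33, with 3 of 11 rising in all, where 12.6% of all genes rose. By Day 14, 0 of 11 rose and 1 fell in FP-KO lungs (Gbp2, by 0.51), where 1.85% rose and 1.41% fell. Cxcl10 was then lower in FP-KO than in WT lungs by a difference of -1.21 and was the 1 gene of the list to pass there and in the interaction at Day 14 (-1.60).

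Whole lung was measured, so fewer cells of a type and less RNA per cell cannot be told apart, and markers of other cell types moved on the same days as the proteasome genes. The mean of 4 pan-leukocyte genes was -0.15 to 0.11 in WT lungs on Day 0 and 0.33 to 0.42 on Day 7, and 2 of 4 rose. Of 8 macrophage genes 7 rose by Day 7 in WT lungs, where their mean was 1.47 to 1.56, and 6 rose in FP-KO lungs, at 1.08 to 1.45. All 4 tested cell cycle genes rose by Day 7 in both genotypes. Of all genes 17.1% rose by Day 7 in WT and 12.6% in FP-KO lungs. Of 5 genes of NK and cytotoxic cells 3 fell by Day 7 and 5 by Day 14 in WT lungs, and of 4 T cell genes 1 and 2 fell. Of all genes 18% fell by Day 7 in WT lungs. By Day 14, 20.1% did in the fit without FP-KO Day 14 No. 2, and the share with this lung kept is not given here. On Day 14 the leukocyte mean was -0.55 in FP-KO No. 2, where the other FP-KO lungs of that day had -0.03 to 0.18 and WT lungs 0.10 to 0.26, and its macrophage and cell cycle means were 0.22 and 0.23, against at least 0.90 and 1.08 in the rest. The part of these cell types in the proteasome results was not tested.

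Of the 44 genes, 23 had more than 1 probe set with their symbol, and 18 had more than 1 above the filter. All of these probe sets moved in 1 direction by Day 7 in WT lungs for 14 of the 18; the exceptions were Psma6, Psmb1, Psmd13 and Psme4, in each of which a dimmer probe set was lower on Day 7.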

How the data were processed

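Total lung RNA of 25 female mice (6 ug each, labelled with biotin, per the labels' protocols) was hybridised to Affymetrix mouse expression arrays. The authors deposited 1 linear intensity per probe set and array. Which software summarised the probes was not given in the sources used here. Deposited values of every array average 500 once 2% are trimmed at either end. Of 45101 probe sets, 64 controls and 932 with several symbols were left out, as were those with no symbol, and 34945 with 1 symbol remained, of which 34741 matched the RefSeq gene table.

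Intensities were floored at 24.3 (their 20th percentile) and turned to log2. Array medians differed by 0.432, over the limit of 0.3, so arrays were quantile normalized. Each gene was read by its probe set of highest mean, and 12062 genes that exceeded the median of their array in 4 or more arrays were tested with limma 3.58.1 (R 4.3.3) in 1 fit over the 6 groups with no covariate, with 11 contrasts and Benjamini-Hochberg adjusted p under 0.05. Scripts were tested on simulated data, and figures were drawn with matplotlib 3.10.9 (Python 3.11.15). The number of arrays limits the precision. Each title names a numbered mouse, and p-values measure the spread between mice.

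Shown by array were the immunoproteasome genes and Psmb5, Psmb6 and Psmb7; other members were named where they were among up to 4 genes that rose or fell most in a contrast, and of each other list up to 3 genes. Psmd8 was also followed by array, and members named beyond these complete a role or a count. The members and lists were chosen with earlier results of these data known. Same-numbered mice of both genotypes deviated together on Day 0 (r of 0.119 to 0.345 over genes) and Day 7 (0.141 to 0.221) but not in every pair on Day 14 (0.195 to 0.437 in 3 pairs and -0.308 in No. 3), so the numbers were not taken as pairs. That No. 3 pair joins a WT lung of the first Day 14 set with an FP-KO lung of the second. Counts with the mouse number as a block are given below. Alternatives were the scaling, the floor and filter, the probe set rule, trend and robust eBayes, array weights, the mouse number as a block, only the groups compared, each lung left out in turn and the Day 14 sets.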

Additional observations from a re-analysis of the deposited data

Results flagged for a closer look

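Of 138 groups of lungs, taken over the named members and 4 means over members, 5 held a lung whose gap to the nearest of its group was large for the range of the group; chance alone marks about 1 in 20 groups. Psmb9 was 10.0537 in WT Day 0 No. 1, with the other 3 lungs at 10.5055 to 10.5626. Psmb5 was 11.4212 in FP-KO Day 0 No. 4, with the others at 11.3411 to 11.3487, a group whose whole range is narrow. Psmb7 was 13.1267 in WT Day 14 No. 4, with the others at 12.9524 to 12.984. Psmd8 was 11.2813 in FP-KO Day 14 No. 2, with the others at 11.8504 to 11.8888. Psmc2, the ATPase gene that fell from Day 7 to Day 14 in WT lungs, was 12.6501 in WT Day 7 No. 1, with the others at 12.4211 to 12.4577.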

How the results depend on the processing

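Counts below are proteasome genes that passed in either direction, in limma with Benjamini-Hochberg adjustment. The share of all genes that passed in the same fit is not given beside them. A move in a count is therefore not read as a result about the proteasome. Without quantile normalization they were 11 for FP-KO Day 7 against Day 0 and 0 for WT Day 14 against Day 7. With a common array median they were 10 for WT Day 7 against Day 0, 8 for WT Day 14 against Day 0, and 0 for WT Day 14 against Day 7 and for FP-KO against WT on Day 14. The mean of all probe sets gave 3 for WT Day 14 against Day 7 and 0 for FP-KO against WT on Day 14, and trend and robust eBayes gave 2 for both, 1 for FP-KO Day 14 against Day 0 and 2 for the interaction at Day 14. The stricter filter of 12 arrays gave 2 for FP-KO against WT on Day 14. Array weights gave 12 for FP-KO Day 7 against Day 0, 20 for WT and 9 for FP-KO Day 14 against Day 7, 7 for FP-KO against WT on Day 14 and 5 for the interaction at Day 14. With only the groups compared, WT and FP-KO Day 14 against Day 7 and FP-KO against WT on Day 14 gave 0.

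The replicate block gave 1 for FP-KO Day 14 against Day 0, 6 for WT Day 14 against Day 7, 3 for FP-KO against WT on Day 14 and 2 for the interaction at Day 14 (Psmb8 and Psmd13); it gave 21 and 8 for Day 7 against Day 0 in WT and FP-KO lungs, 15 for WT Day 14 against Day 0, 18 for FP-KO Day 14 against Day 7 and 0 elsewhere.

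The Day 14 sets were read from these same arrays, and this holds for every contrast. Fits within the sets were planned for FP-KO against WT on Day 14 and added later for the other contrasts. With the first set alone, FP-KO Day 14 against Day 0 gave 14, WT Day 14 against Day 7 gave 17, and FP-KO against WT on Day 14 and the interaction at Day 14 gave 3 each. The second set alone gave 5 for WT Day 14 against Day 0 and 0 for WT and FP-KO Day 14 against Day 7 and FP-KO against WT on Day 14. The set as a term gave 0 for WT and 7 for FP-KO Day 14 against Day 7, 6 for FP-KO against WT on Day 14 and 2 for the interaction at Day 14.

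Leaving out 1 lung gave 12 to 20 for WT Day 7 and 7 to 14 for WT Day 14 against Day 0 (lowest without WT Day 0 No. 1), 2 to 9 for FP-KO Day 7 against Day 0 (lowest without FP-KO Day 7 No. 2), 0 to 2 for FP-KO Day 14 against Day 0, 0 to 6 for WT and 5 to 20 for FP-KO Day 14 against Day 7, 0 to 3 for FP-KO against WT on Day 14 (lowest of these last 2 without FP-KO Day 14 No. 2), 0 to 2 for the interaction at Day 14 and 0 elsewhere. The immunoproteasome minus the rest then ran from -0.19 to -0.02 (WT Day 7 against Day 0), -0.08 to 0.06 (WT Day 14), -0.22 to -0.10 (FP-KO Day 7), -0.27 to -0.15 (FP-KO Day 14), 0.03 to 0.19 (WT Day 14 against Day 7), -0.09 to -0.01 (FP-KO), and 0.10 to 0.26, 0.06 to 0.23 and -0.03 to 0.03 between genotypes on Day 0, 7 and 14.

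With the mean of all probe sets the direction turned for Psmd7 in WT Day 7 against Day 0 (-0.0288), Psmc1 in WT Day 14 against Day 0 (-0.0101), and Psmd13 in FP-KO Day 14 against Day 7 (0.0163) and FP-KO against WT on Day 14 (0.039). The mean takes in dim probe sets. The other probe set of Psmc1 lay above the array median in 0 arrays and those of Psmd7 in 2 and 0. Those of Psmd13 did so in 25, 24 and 0 arrays. The cause of these changes was not tested. In WT lungs, Psmb5, Psmc3, Psmc5, Psmc6, Psmd8 and Psmd10 on Day 7 and Psmb5 and Psmd2 on Day 14 passed in every alternative run. So did Psmb3 and Psmd8 on Day 7 in FP-KO lungs. A probe set near background has little room to fall, which limits Psma8 and Psmb11.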

Other observations

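On Day 7, mice No. 1 and 2 of both genotypes were higher in Psmb2 and Psmd8 than No. 3 and 4. The split was not particular to these genes. The mean over the 38 proteasome genes outside the immunoproteasome was 0.32 and 0.34 against 0.24 and 0.23 in WT lungs. In FP-KO lungs it was 0.28 and 0.33 against 0.21 and 0.11. On the first principal component of all tested genes, WT lungs lay at 29.9 and 33.9 against 17.6 and 22.4. FP-KO lungs lay at 25 and 24.4 against 12.3 and 2.56 on this component. Psmb2, a structural core subunit, was 11.09 and 11.46 against 10.62 and 10.66 in WT lungs and 11.47 and 11.55 against 10.68 and 10.50 in FP-KO lungs. Psmd8 was 12.32 and 12.49 against 12.10 and 11.92 in WT lungs and 12.40 and 12.49 against 12.18 and 11.80 in FP-KO lungs. The labels give these numbers no meaning, and the pairs were noticed in the values, so they carry no test.

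Probe sets of 1 gene could differ in size. The Psmc4 probe set used here differed from Day 0 by 0.17 on Day 7 and 0.70 on Day 14 in WT lungs and by 0.20 and 0.66 in FP-KO lungs, whereas the dimmer one differed by 0.39, 0.29, 0.39 and 0.17. For Psmc2 the probe set used differed by -0.19 in WT lungs on Day 14 and the other by 0.03.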
